A study of Mus musculus with 4 samples.

Results

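The 8 genes described here are the nuclear receptors Ppara, Ppard, Esrra, Esrrg and Rxra, the coactivators Ppargc1a and Ppargc1b, and the enzyme gene Pank1. They were picked by symbol from the 32285 genes of the feature list, and all 8 were found in both single-nucleus RNA matrices. The study enriched buoyant cells from digested thymus and from epigonadal white fat and sequenced the RNA of their nuclei, with chromatin accessibility measured in a further thymic preparation. All mice were wild type, untreated C57/BL6 on a standard chow diet. The thymic RNA library came from the pooled thymi of 6 male mice aged 4 months. The epigonadal RNA library came from male mice of the same age, and the number of animals in it is not given. The chromatin library came from the pooled thymi of 16 female mice aged 6 months; the RNA of that preparation was not analysed here. Each group is 1 library, so no difference below has a replicate check, and every interval is a 95% interval that covers counting error only.

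PPAR alpha, encoded by Ppara, is a receptor for fatty acids that pairs with RXR alpha, the product of Rxra, and switches on genes of fatty acid oxidation; PPAR delta, encoded by Ppard, binds similar sites. The estrogen-related receptors, encoded by Esrra and Esrrg, act without a known natural hormone and drive genes of the mitochondrial respiratory chain and citric acid cycle. PGC-1 alpha and PGC-1 beta, encoded by Ppargc1a and Ppargc1b, are coactivators that dock on both receptor families, and PGC-1 alpha is induced by cold in brown fat. Pank1 encodes a pantothenate kinase, which catalyses the first step of coenzyme A synthesis and is a known target of PPAR alpha in liver.

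The RefSeq promoter table, on GRCm38, held 12 annotated starts for 7 of the 8 genes, each as 250 bases before to 50 bases after the start. The 4 windows below are shown because chromatin at these starts is described further on; capitals mark every match to the motifs that were searched.

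Ppara, chr15:85735526-85735825, plus strand: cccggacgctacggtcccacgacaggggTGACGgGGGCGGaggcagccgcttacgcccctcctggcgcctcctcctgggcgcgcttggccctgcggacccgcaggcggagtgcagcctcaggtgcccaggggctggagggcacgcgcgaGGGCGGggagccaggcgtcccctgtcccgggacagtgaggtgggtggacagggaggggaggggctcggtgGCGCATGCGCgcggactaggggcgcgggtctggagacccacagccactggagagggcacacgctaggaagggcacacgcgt

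Esrrg upstream start, chr1:187608756-187609055, plus strand: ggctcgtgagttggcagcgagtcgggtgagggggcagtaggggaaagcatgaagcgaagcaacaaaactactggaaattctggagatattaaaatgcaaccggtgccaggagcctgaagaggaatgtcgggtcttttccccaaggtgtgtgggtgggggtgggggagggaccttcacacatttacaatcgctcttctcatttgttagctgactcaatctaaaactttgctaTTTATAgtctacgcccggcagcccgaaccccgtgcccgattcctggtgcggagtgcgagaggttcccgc

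Pank1 upstream start, chr19:34879406-34879705, minus strand: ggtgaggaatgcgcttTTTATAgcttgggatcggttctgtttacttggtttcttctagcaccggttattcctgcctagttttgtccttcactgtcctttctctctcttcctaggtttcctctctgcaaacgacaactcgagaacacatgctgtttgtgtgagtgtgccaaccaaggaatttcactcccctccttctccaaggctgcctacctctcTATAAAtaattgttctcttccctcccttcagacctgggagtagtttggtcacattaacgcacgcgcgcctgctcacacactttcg

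Pank1 downstream start, chr19:34877868-34878167, minus strand: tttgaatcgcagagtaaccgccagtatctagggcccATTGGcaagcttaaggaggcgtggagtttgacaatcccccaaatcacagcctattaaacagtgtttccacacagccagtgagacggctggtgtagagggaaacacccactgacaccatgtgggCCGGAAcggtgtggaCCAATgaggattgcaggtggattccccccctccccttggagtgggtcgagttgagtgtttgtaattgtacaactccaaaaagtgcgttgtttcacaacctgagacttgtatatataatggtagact

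The Ppara window was rich in G and C, at 74.7% against a median of 52.7% over all 32851 promoters, and held 30 CpG pairs. Its capitals mark 1 short cAMP motif (TGACG, in 20.8% of promoters), 2 GC boxes (GGGCGG, in 35.7%) and the NRF1 motif GCGCATGCG (in 1.75% of promoters), which matched on both strands in overlapping matches. The Pank1 upstream window was 48.0% G and C and held 2 TATA motifs (TATAAA, in 13.6% of promoters), 1 of them on the gene's strand with its first base at position -35. The Pank1 downstream window, 1.54 kb from the upstream one, held no TATA motif by these letters, but 2 CCAAT boxes (CCAAT, in 37.4%) and 1 ETS motif (CCGGAA, in 14.9%). The Esrrg upstream window held 1 TATA motif on the opposite strand. Both strands were searched in each case. None of the 12 windows held the estrogen-related receptor element TCAAGGTCA (in 0.423% of promoters) or the pair of AGGTCA sites in the same direction, 1 base apart, that PPAR and RXR bind (in 0.0396%). The single receptor site AGGTCA (in 16.3%) occurred in 1 window, that of the downstream Rxra start, which also held AAGGTCA (in 4.72%) on an overlapping match. These are matches of letters in a short window and say nothing of binding.

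The authors' labels gave 365 thymic nuclei, of 22600 barcodes, and 1564 epigonadal nuclei, of 5043 barcodes, to Ad Ia or Ad Ib, or to the Ad II labels Ad IIa, Ad IIb and Ad IIc. Levels are counts of unique molecular identifiers (UMIs) summed over the nuclei of a label, per 1000000 UMIs of nuclear-encoded genes (CPM). Ad Ia and Ad Ib together, called Ad I below, held 84 thymic nuclei with a median of 500.5 UMIs and 258 epigonadal nuclei with a median of 744.5. Ad I carried adipocyte markers in both libraries, with 11 of 12 detected and a summed 6757 CPM in the thymic library (Lep at 0) and 12 of 12 and 7584 CPM in the epigonadal library. Ad IIa carried endothelial markers, 10 of 10 in both, at a summed 9007 CPM in the thymic and 6669 CPM in the epigonadal library, beside adipocyte markers at 2743 CPM (11 of 12) and 4657 CPM (12 of 12). Ad IIc did not hold the same markers in the 2 libraries: endothelial markers summed to 7980 CPM in the thymic and 415 CPM in the epigonadal nuclei, and adipocyte markers to 2082 and 13362 CPM. The 2 libraries shared 147 barcodes, of which none was labelled in both.

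Among labelled nuclei, Ppara RNA was found mainly in Ad I, and most of all in those of the thymus. Its level was 1193 CPM (33 UMIs) in thymic Ad Ia and 2278 CPM (56 UMIs) in thymic Ad Ib, against 362 CPM (52 UMIs) and 183 CPM (22 UMIs) in the same labels of the epigonadal library. The intervals of thymic Ad Ib and thymic Ad Ia did not overlap each other, nor did that of thymic Ad Ia overlap that of epigonadal Ad Ia, next in the order, whereas those of epigonadal Ad Ia and Ad Ib did. In every Ad II label of either library Ppara stayed at 37.0 CPM or less, with 7 UMIs over 231 nuclei in thymic Ad IIa and 2 UMIs over 590 nuclei in epigonadal Ad IIa. Seen per nucleus, 45 of 84 thymic Ad I nuclei (53.6%) held a Ppara UMI, against 58 of 258 (22.5%) in the epigonadal library. Ad IIa, which carried endothelial markers, gave 2.16% in the thymic library at a median depth of 1696 UMIs and 0.339% in the epigonadal library at 1916 UMIs. With each nucleus thinned to 300 UMIs the Ppara shares were 36.9% in thymic Ad I, 8.14% in epigonadal Ad I and 0.433% in thymic Ad IIa. The single nucleus with the most Ppara held 7 UMIs.

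The coactivator gene Ppargc1b had the same order over the 4 Ad I sums. It stood at 759 CPM (21 UMIs) in thymic Ad Ia and 1383 CPM (34 UMIs) in thymic Ad Ib, and at 174 CPM (25 UMIs) and 108 CPM (13 UMIs) in epigonadal Ad Ia and Ad Ib. The 2 thymic intervals overlapped each other, and so did the 2 epigonadal ones, but the thymic and epigonadal pairs did not overlap. Ad II nuclei held 36.9 CPM or less. By contrast, the other PGC-1 gene, Ppargc1a, was close to undetected in both depots: thymic Ad I held 2 UMIs in 84 nuclei, both in Ad Ib, and epigonadal Ad I held 4 UMIs in 258 nuclei. The 0 UMIs of thymic Ad Ia allow a level of up to 108 CPM, which takes in the 81.4 CPM of thymic Ad Ib.

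Of the estrogen-related receptor genes, Esrrg was detected mainly in Ad I and Esrra in more labels. Esrrg reached 398 CPM (11 UMIs) in thymic Ad Ia and 732 CPM (18 UMIs) in thymic Ad Ib, against 76.6 CPM (11 UMIs) and 24.9 CPM (3 UMIs) in epigonadal Ad Ia and Ad Ib. Outside Ad I it was seen as 2 UMIs in thymic Ad IIa and not at all in the other 5 label sums. The 0 UMIs allow up to 2.42 CPM in epigonadal Ad IIa, 5.81 in Ad IIc and 21.3 in Ad IIb. In thymic Ad IIc and Ad IIb they allow up to 55.3 and 111 CPM, and the last takes in the levels of epigonadal Ad I. Esrra lay between 72.3 and 81.4 CPM in thymic Ad Ia and Ad Ib (2 UMIs each) and between 33.3 and 48.7 CPM in the epigonadal ones, and all its neighbours in the order overlapped. Ad IIa nuclei also held Esrra, at 17.4 CPM (7 UMIs) in the thymic and 25.1 CPM (31 UMIs) in the epigonadal library.

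Pank1 showed the lowest epigonadal Ad I count of the 4 genes that stood higher in thymic Ad I. Thymic Ad Ia and Ad Ib held 253 CPM (7 UMIs) and 773 CPM (19 UMIs), while epigonadal Ad Ia and Ad Ib held 1 UMI and 4 UMIs, or 6.96 and 33.3 CPM. Thymic Ad IIa also held Pank1, at 44.8 CPM (18 UMIs), a level above the 9.70 CPM (12 UMIs) of epigonadal Ad IIa. The share of nuclei with a Pank1 UMI was 26.2% in thymic Ad I (22 of 84), 6.06% in thymic Ad IIa and 1.94% in epigonadal Ad I (5 of 258).

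Ppard and Rxra were present at low levels in most labels. Ppard ranged from 15.5 CPM in epigonadal Ad IIc to 122 CPM in thymic Ad Ib (3 UMIs), and every pair of neighbours in that order overlapped. Farther apart, the Ppard interval of epigonadal Ad IIa (37.0 to 62.4 CPM, 60 UMIs) lay above that of epigonadal Ad IIc (6.7 to 30.5 CPM, 8 UMIs). Rxra had its highest level in an epigonadal label, Ad Ia, at 111 CPM (16 UMIs), with 2 UMIs in thymic Ad Ia and none in thymic Ad Ib, where 0 allows up to 122 CPM. Within the epigonadal library Rxra was higher in Ad I than in Ad IIa by a log2 of 1.07 (0.28 to 1.79).

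**Figure D1:**
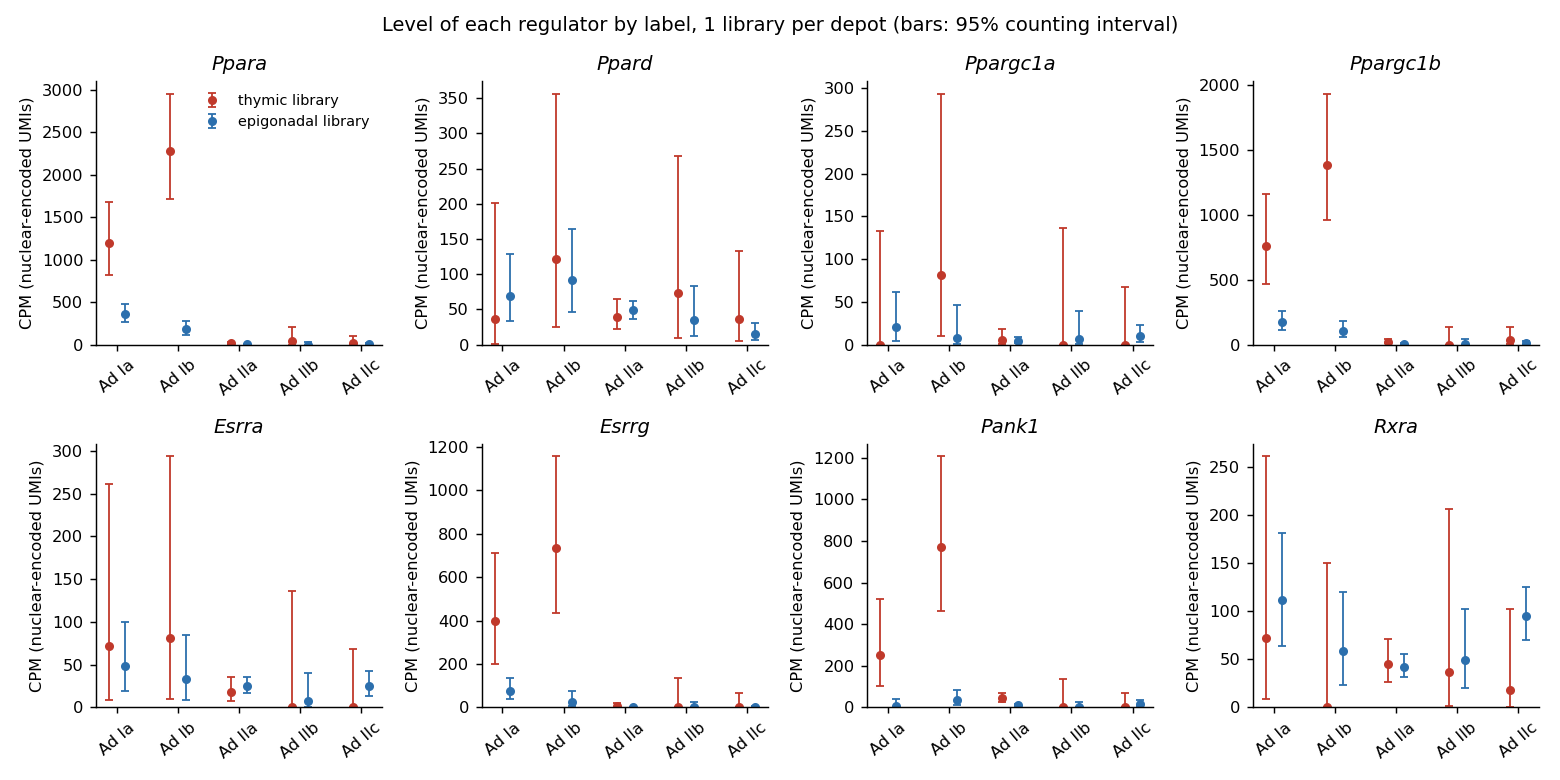
Level of each regulator (CPM, vertical axis, from 0, scaled per gene) in the 5 labels (horizontal axis) of the thymic (red) and epigonadal (blue) library; points are summed nuclei and bars are 95% Poisson intervals. Ppara, Ppargc1b, Esrrg and Pank1 stand apart in thymic Ad Ia and Ad Ib, where Ppara reaches 2278 CPM, while for Ppard, Esrra, Ppargc1a and Rxra the thymic and epigonadal bars overlap in Ad Ia and in Ad Ib.

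Set as ratios within Ad I, thymic over epigonadal, the difference was a log2 of 2.60 (2.14 to 3.07) for Ppara, 2.86 (2.25 to 3.51) for Ppargc1b, 3.36 (2.42 to 4.42) for Esrrg and 4.60 (3.31 to 6.45) for Pank1, with 0.5 UMI added to each sum. Intervals that include 0 were found for Ppard at 0.08 (-2.06 to 1.51), Esrra at 0.98 (-1.23 to 2.63), Ppargc1a at 1.49 (-2.13 to 4.14) and Rxra at -0.90 (-4.32 to 0.83). The intervals of Ppard, Esrra and Ppargc1a leave room for more than a 2-fold difference either way, and that of Rxra for more than 2-fold lower. A minimum of 10 UMIs over both sums was met by 7 of the 8 genes, Ppargc1a being the exception; 4 of the 7 were 2-fold or more higher in the thymic nuclei, as were 15.2% of the 5346 genes with that minimum, and none was 2-fold or more lower, against 17%. The same 4 of the 7 had an interval above 0, as did 7.48% of genes, and none had one below 0, against 4.26%. With TMM scaling, which shifts all Ad I ratios by -0.34, 7.43% of genes were 2-fold or more higher and 24.4% lower; the same 4 regulators stayed past 2-fold and Rxra, at -1.24, was then 2-fold or more lower. Ranked by their ratio among those 5346 genes, Pank1 was number 2, Esrrg 9, Ppargc1b 23 and Ppara 35, and Esrra, Ppard and Rxra were 826, 2657 and 4337.

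The 4 genes stood higher in the thymic library in Ad Ia and in Ad Ib. In Ad Ia, the label with few endothelial UMIs in the thymus (2 UMIs over 10 markers), the log2 ratios were 1.73 (1.04 to 2.38) for Ppara, 2.13 (1.21 to 3.02) for Ppargc1b and 2.38 (1.03 to 3.72) for Esrrg. Pank1 gave 4.70 (2.22 to 10.68) there on 7 and 1 UMIs, below the minimum of 10. In Ad Ib the 4 ratios, in the same order, were 3.62 (2.90 to 4.42), 3.64 (2.72 to 4.72), 4.69 (3.10 to 7.28) and 4.41 (2.95 to 6.55). Of all genes with that minimum, 16.4% in Ad Ia and 21.4% in Ad Ib were 2-fold or more higher in the thymic library. Within Ad IIa, where 5.44% of genes passed that fold, Ppargc1b differed by 2.17 (0.56 to 3.98) on 9 and 6 UMIs and Pank1 by 2.19 (1.07 to 3.40), while Ppara, with 7 and 2 UMIs, was below the minimum of 10. The unlabelled thymic barcodes held 299 CPM of Ppara, 177 CPM of Ppargc1b and 75.6 CPM of Pank1, and T cell markers in thymic Ad IIa stood at 5.26% of their level there; the part of RNA from outside the nuclei in these low Ad IIa levels was not tested. Thymic Ad Ib also held 63 UMIs of 8 endothelial markers, or 2563 CPM. Brown adipocyte markers summed there to 1017 CPM (25 UMIs, 7 of 8 detected), against 24.9 CPM (3 UMIs, 2 of 8) in epigonadal Ad Ib. In Ad Ia the brown marker sums were 362 CPM (10 UMIs, 4 of 8) in the thymic and 34.8 CPM (5 UMIs, 3 of 8) in the epigonadal library. The unlabelled thymic barcodes held brown markers at 418 CPM. Of the defining brown markers, Ucp1 was at 0 in epigonadal Ad I. In thymic Ad I it was found in 2 of the 45 nuclei with a Ppara UMI and 2 of the 39 without. Skeletal and cardiac muscle markers were at 0 in thymic Ad Ia and gave 2 UMIs, both Ryr2, in thymic Ad Ib. T cell markers summed to 593 CPM in thymic and 106 CPM in epigonadal Ad I. The part of these other cells in the ratios was not tested. As a gauge of RNA from outside the nuclei, T cell markers in thymic Ad I stood at 10.1% of their level in the unlabelled thymic barcodes, and macrophage markers in epigonadal Ad I at 56.6% of theirs. These are ratios of marker levels and no measured share: in epigonadal Ad I the erythroid markers were at 584 CPM against 9561 CPM in the unlabelled barcodes and T cell markers at 106 against 426 CPM, which are smaller ratios.

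**Figure D2:**
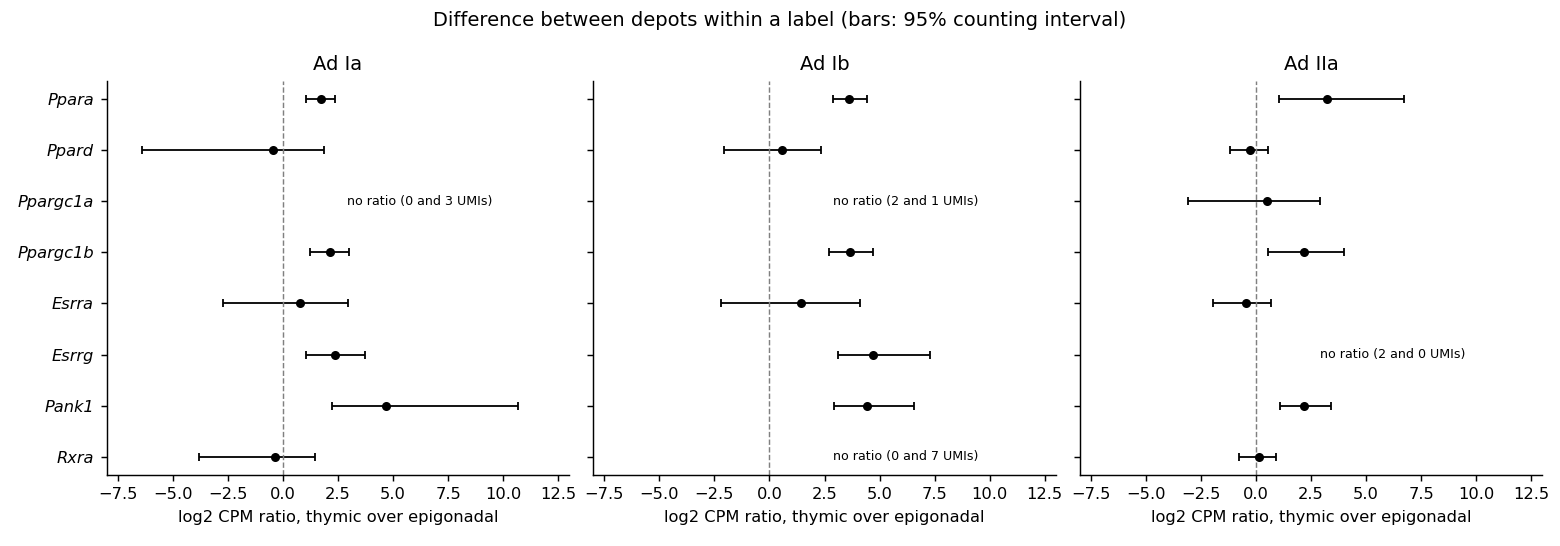
Log2 ratio of CPM, thymic over epigonadal (horizontal axis), for each regulator (vertical axis) in Ad Ia, Ad Ib and Ad IIa; bars are 95% binomial intervals and the dashed line is no difference. Where either sum is 0 or both hold 3 UMIs or fewer, the UMIs are written in place of a ratio. Ppara, Ppargc1b and Pank1 lie right of 0 in all 3 panels and Esrrg in the first 2.

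The difference between depots was not the same at all depths, in a split of the nuclei that was chosen after seeing the data. The thymic Ad I nuclei were shallow, with 42 of 84 under 500 UMIs, a range that holds none of the 5043 epigonadal barcodes, labelled or not. The deposited matrices thus begin at different depths, and this lower limit cannot be told apart from the depot. In the thymic library Ppara stood at 3723 CPM (2797 to 4858; 54 UMIs) in those 42 nuclei, at 1699 CPM (1154 to 2411; 31 UMIs) in the 33 nuclei from 500 to under 1000 UMIs, and at 205 CPM (55.9 to 526; 4 UMIs) in the 9 nuclei with 1000 UMIs or more. The 3 intervals did not overlap. As plain counts, Ppara gave 1.29, 0.939 and 0.444 UMIs per nucleus from the shallow to the deep nuclei, although the deep nuclei held more UMIs in all. The epigonadal Ad I nuclei gave 292 CPM (33 UMIs in 179 nuclei) from 500 to under 1000 UMIs and 272 CPM (41 UMIs in 79 nuclei) at 1000 or more.

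The depot ratio of Ppara was therefore 2.54 (1.79 to 3.29) on the log2 scale among nuclei from 500 to under 1000 UMIs and -0.25 (-2.35 to 1.06) among the deeper ones. Ppargc1b went from 3.50 (2.53 to 4.58) to 1.04 (-0.63 to 2.28) and Esrrg from 4.47 (2.74 to 7.10) to 1.60 (-0.61 to 3.25) between the same strata. Pank1 was 3.85 (2.16 to 6.08) from 500 to under 1000 UMIs, while the deep nuclei held only 1 UMI in each library. The level of the summed adipocyte markers varied less over these thymic strata, with 7308, 6301 and 6774 CPM from shallow to deep. Brown adipocyte markers (1241, 548 and 359 CPM) and T cell markers (1241, 548 and 154 CPM) were, like Ppara, highest in the shallow nuclei. Endothelial markers went the other way, from 0 UMIs in the 42 shallow nuclei to 822 CPM and then 2566 CPM in the 9 deep ones, where 2 Ad Ib nuclei supplied 49 of the 50 endothelial UMIs. In the 7 deep nuclei of thymic Ad Ia, with 1 endothelial UMI, Ppara was 214 CPM on 3 UMIs. The mitochondrial share of UMIs was 17.2%, 15.9% and 11.5% over the thymic strata and was 5.23% and 5.84% in the epigonadal ones. The part of depth and RNA quality in the depot difference was not tested.

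**Figure D3:**
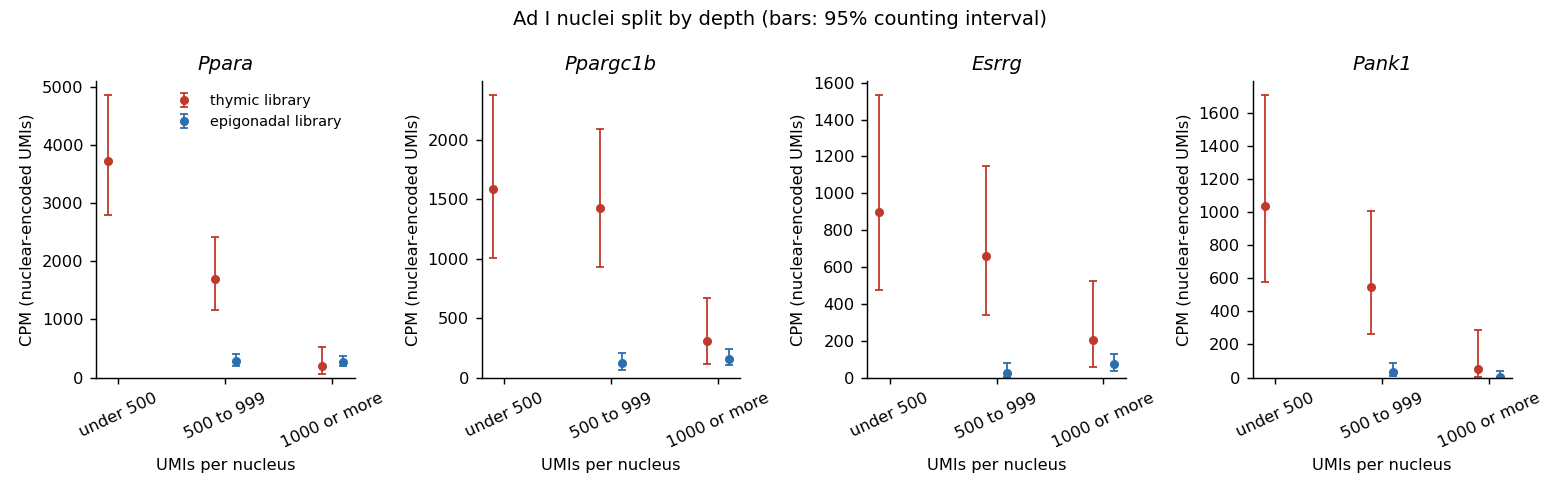
Level (CPM, vertical axis, from 0) of 4 regulators in Ad I nuclei split by UMIs per nucleus (horizontal axis) in the thymic (red) and epigonadal (blue) library; bars are 95% Poisson intervals, and no epigonadal Ad I nucleus had under 500 UMIs. Thymic Ppara goes from 3723 to 205 CPM with depth, and the bars of the 2 libraries overlap at 1000 UMIs or more.

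Ad Ia and Ad Ib were ordered differently in the 2 depots for Ppara. Thymic Ad Ib exceeded thymic Ad Ia by 0.92 (0.29 to 1.60) on the log2 scale, whereas epigonadal Ad Ib was below epigonadal Ad Ia, at -0.97 (-1.78 to -0.24). In the thymus Ppargc1b followed with 0.85 (0.04 to 1.72) and Pank1 with 1.55 (0.30 to 3.10), and Esrrg, at 0.86 (-0.28 to 2.11), had an interval that includes 0. The intervals of 3 of the 4 regulators with 10 UMIs lay above 0, as did those of 6.26% of the 1022 genes with that minimum. In the epigonadal library Ppara was the only regulator of 6 with an interval on either side of 0, and 7.05% of 4763 genes had one below it and 5.25% above it. Among thymic nuclei of like depth the order varied, with overlapping intervals: under 500 UMIs Ppara was 4383 CPM (2453 to 7230) in Ad Ia and 3519 CPM (2502 to 4810) in Ad Ib, from 500 to under 1000 UMIs 1466 (821 to 2419) and 1995 (1140 to 3239), and at 1000 or more 214 and 183 on 3 UMIs and 1. In the epigonadal library Ad Ia was the higher in both strata, at 420 and 238 CPM from 500 to under 1000 UMIs and 345 and 74.0 CPM at 1000 or more. The labels may rest on a clustering of the same nuclei, so these are descriptions of the labels; the median depth also differed, at 604 and 442 UMIs in the thymus and 1077 and 678.5 in the epigonadal fat.

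Some of the regulators were detected together in the thymic Ad I nuclei. Of the 45 with a Ppara UMI, 21 (46.7%) also held Ppargc1b, against 7 of the 39 (17.9%) without Ppara, at median depths of 494 and 511 UMIs. For Esrrg the shares were 31.1% and 12.8%, and for Pank1 31.1% and 20.5%, though within Ad Ib Pank1 gave 29.6% and 31.8%. Esrra (4.44% and 5.13%) and Rxra (0% and 5.13%) were not more frequent beside Ppara. Ppargc1a (4.44% and 0%) and Ppard (4.44% and 2.56%) were, each on 2 nuclei with Ppara. The overlap was not particular to the regulators, since Pparg was found in 64.4% and 38.5% and Cidea in 22.2% and 10.3%. For Cidea the shares differed in Ad Ib (29.6% and 9.09%) and were near each other in Ad Ia (11.1% and 11.8%). The overlap was not shared by all fat cell genes either. Plin1 gave 40% and 35.9%, Adipoq 8.89% and 12.8% and Ucp1 4.44% and 5.13%. Counting Ppara, Ppargc1b, Esrrg and Pank1 together, 9 thymic Ad I nuclei held 3 of the 4 and 5 held all 4. No epigonadal Ad I nucleus held more than 2 of them, although those nuclei were deeper. At the other end, 27 thymic (32.1%) and 171 epigonadal Ad I nuclei (66.3%) held none of the 4.

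Across the 10 sums of 5 labels in 2 libraries, the log2 levels of Ppara, Ppargc1b and Esrrg tracked each other, with Pearson correlations of 0.94 for Ppara and Ppargc1b, 0.96 for Ppara and Esrrg and 0.97 for Ppargc1b and Esrrg. The 10 sums share 2 libraries and a set of cell classes, so this describes the pattern and no more. Among the 4521 or 4522 other genes with at least 100 UMIs, those most like Ppara were Ralgapa2 (0.97), Sik2, a kinase of the salt-inducible family (0.96), and Golga4 (0.96). Those most like Ppargc1b were Gbe1, the glycogen branching enzyme, Chchd3 and the receptor tyrosine kinase gene Erbb4, each at 0.96. Ahcyl1 was most like Pank1 (0.99), with Wdfy2 (0.92) and Ppp2r3a (0.91) next. For Rxra the 3 were Tcaf1 (0.95), Atp6v1b2 (0.92) and Tex2 (0.91), for Esrra Peg3 (0.95), Slc36a2 (0.94) and Aox1 (0.94), and for Ppard Mad1l1 (0.96), Rnf214 (0.93) and Ubac2 (0.93).

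The barcodes that the authors did not label also held these genes. The 22235 unlabelled thymic barcodes had a median of 308 UMIs and carried 51.2% mitochondrial UMIs, and they gave 299 CPM of Ppara (1375 UMIs), 177 CPM of Ppargc1b (816 UMIs), 78.2 CPM of Esrrg (360 UMIs) and 75.6 CPM of Pank1 (348 UMIs). These levels lay above thymic Ad IIa for each of the 4 and below thymic Ad I. Most of the Ppara sat in barcodes with 20% or more mitochondrial UMIs, but these were also most of the barcodes (21302 of 22235). Their level was 388 CPM (1317 UMIs), against 47.9 CPM (58 UMIs) in the 933 unlabelled barcodes under that share. The depths differed, with medians of 303 and 1283 UMIs. Counted per barcode, 34 of those 933 held a Ppara UMI, against 886 of all 22235, so the difference in CPM is not one in the share of barcodes with Ppara. Ppara UMIs were clustered in barcodes: 115 unlabelled thymic barcodes held 3 or more, and the highest held 7. In the unlabelled epigonadal barcodes Ppara stood at 29.1 CPM (110 UMIs), Ppargc1b at 37.3 CPM and Pank1 at 27.0 CPM. Pank1 in labelled epigonadal Ad I was at 19.0 CPM on 5 UMIs. The log2 ratio of that label over the unlabelled barcodes, -0.38 (-2.16 to 0.76), had an interval that includes 0.

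Of the relatives of these receptors, 3 of 19 had 10 UMIs or more in Ad I, and none was past 2-fold (15.2% higher and 17% lower over all genes), while 2 of the 3 had an interval above 0, against 7.48%. Pparg, the master regulator of fat cell formation, stood at 1417 CPM in thymic and 891 CPM in epigonadal Ad I, a log2 ratio of 0.68 (0.27 to 1.05). The interval counts are without TMM scaling, which shifts all Ad I ratios by -0.34, more than the lower limit of Pparg. The thyroid hormone receptor genes Thrb and Thra gave 0.84 (0.40 to 1.25) and -0.27 (-2.10 to 0.98). Over all 5346 genes the median was 0.08.

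Partners that the receptors recruit were mostly within 2-fold. Of 18 coactivator and corepressor genes 16 had 10 UMIs, 2 were 2-fold or more higher in thymic Ad I and none lower, with a median log2 ratio of 0.57; over all genes the shares were 15.2% and 17%. With TMM scaling the counts were 1 and 3, against 7.43% and 24.4% of all genes. Hdac3, a deacetylase of the corepressor complex, was at 1.71 (-0.30 to 3.45) and the coactivator gene Ncoa3 at 1.14 (-0.31 to 2.35), and both intervals include 0. Nrip1, a corepressor of oxidative genes in fat, was lower at -0.75 (-1.36 to -0.22), and Cited2 was at -0.83 on 1 and 13 UMIs.

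Among 21 genes that act upstream of PGC-1, 17 had 10 UMIs, of which 7 were 2-fold or more higher and 2 lower (15.2% and 17% over all genes), with a median of 0.67. With TMM scaling 2 of the 17 were higher (7.43% of all genes), and at a minimum of 50 UMIs 2 of 7 (9.13%). Prkacb, a catalytic subunit of protein kinase A, was highest at 2.13 (0.27 to 3.91) on 6 and 7 UMIs, followed by Prkaa2, a catalytic subunit of AMP-activated kinase, at 1.40 (-0.56 to 3.02). The other such subunit, Prkaa1, was lowest at -1.32 (-4.73 to 0.36). Adrb3, the beta-3 adrenergic receptor of fat cells, stood at 211 CPM in the thymic and 519 CPM in the epigonadal nuclei, a log2 ratio of -1.24 (-2.34 to -0.42).

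Genes that PPAR alpha is known to switch on had 8 intervals above 0 in Ad I and none below, against 7.48% and 4.26% of all genes. These counts and shares are without TMM scaling, which shifts all Ad I ratios by -0.34, more than the lower limit of Hadhb given below. Of 34 on the list 18 had 10 UMIs, 8 were 2-fold or more higher in thymic Ad I and 3 lower (15.2% and 17% over all genes), with a median of 0.91, which is the same with Cpt1b at its bound. At a minimum of 50 UMIs, 2 of 5 were higher and 0 lower, against 9.13% and 10.6% of 1084 genes. Cpt1b, which carries fatty acids into mitochondria and is the muscle and brown fat form, had 13 UMIs in thymic Ad I and 0 in epigonadal Ad I, a log2 difference of at least 4.45 against a floor of 3 UMIs over the epigonadal sum. Pdk4, which spares glucose by inhibiting pyruvate dehydrogenase, was at 2.05 (0.86 to 3.19). Of the genes of the mitochondrial oxidation spiral, picked after their values were seen, Acadm was at 1.91 (1.12 to 2.68), Acadl at 1.84 (0.90 to 2.73), Hadha at 1.41 (0.34 to 2.37) and Hadhb at 1.28 (0.33 to 2.12). Other genes of that spiral on the list are not given here, so these values do not describe the spiral as a whole. The lowest were Aldh3a2 at -1.44 (-7.36 to 0.66) and Cpt2 at -1.03 (-6.97 to 1.13), each on 1 thymic UMI with an interval that includes 0. In Ad IIa the list went the other way: of 22 PPAR alpha targets with 10 UMIs none was 2-fold or more higher in the thymic nuclei and 12 were lower, against 5.44% and 16.2% of all genes. There 11 intervals lay below 0 and none above, against 12.2% and 11.6%, and the median was -1.03, or -0.998 with a gene at 0 set to its bound, against -0.02 for all genes. Cell type markers in Ad IIa differed as well. Adipocyte markers summed to 2743 CPM in the thymic and 4657 CPM in the epigonadal library, and endothelial markers to 9007 and 6669 CPM. The part of this difference in the list's ratios was not tested.

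Genes downstream of the estrogen-related receptors and PGC-1 had a median of 0.13 in Ad I, against 0.08 for all genes. The median was 0.63 against 0.05 over 13 genes in Ad Ia, and 0.52 against 0.22 over 15 genes in Ad Ib. Fewer genes had 10 UMIs there than in Ad I, so these medians do not cover the same genes. In Ad Ia 5 were 2-fold or more higher and 1 lower (16.4% and 18.3% over all genes). In Ad Ib 5 were higher and 2 lower (21.4% and 16%). Of 34 listed, 21 had 10 UMIs in Ad I, 6 were 2-fold or more higher and 3 lower (15.2% and 17% over all genes). In Ad I 3 intervals lay above 0 and 0 below, against 7.48% and 4.26%. At a minimum of 50 UMIs, 1 of 4 was higher and 0 lower, against 9.13% and 10.6% of 1084 genes. In Ad IIa 1 of 29 was 2-fold or more higher and 14 were lower, against 5.44% and 16.2%. There 3 intervals lay above 0 and 14 below, against 11.6% and 12.2%, and the median was -0.98, against -0.02 for all genes. The part of the marker difference in Ad IIa, given above, was not tested here either. Cidea, a lipid droplet gene that is also a brown fat marker, was highest at 4.21 (2.70 to 6.38). Slc25a4, the adenine nucleotide carrier, was at -1.29 (-7.21 to 0.83) and cytochrome c, Cycs, at -1.27 (-4.68 to 0.41).

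The other genes of coenzyme A synthesis and turnover were all within 2-fold where counted. Of 14 listed, 7 had 10 UMIs and none was past 2-fold in either direction (15.2% and 17% over all genes), with a median of 0.41. Nudt7, which breaks down coenzyme A in peroxisomes, was at 0.84 (-1.06 to 2.28) and the related kinase gene Pank2 at 0.61 (-1.07 to 1.89). The coenzyme A carrier Slc25a42 and Ppcdc, a step of the synthesis, were at -0.70 (-4.13 to 1.06) and -0.47 (-6.43 to 1.83).

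Chromatin was measured in the labelled nuclei of the 6-month female thymi: 146 called thyAD I with 1646902 fragments, 140 called thyAD II with 2189613 and 31 called Immune with 561387. Fragments were counted over each gene from 2 kb before to 2 kb after it, per 1000000 fragments of the label (FPM). Ppara held 121 FPM (200 fragments) in thyAD I, 74.0 (162) in thyAD II and 57.0 (32) in Immune nuclei. Ppargc1b held 268, 170 and 143 FPM, Esrrg 231, 135 and 130, and Pank1 96.5, 53.9 and 46.3. For each of these genes thyAD I was highest, and the thyAD II and Immune intervals overlapped.

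The gene body of Ppargc1a, whose RNA was scarce in the male nuclei, held 325 FPM (536 fragments) in thyAD I, 253 (555) in thyAD II and 178 (100) in Immune nuclei. Rxra had its highest value in thyAD II, at 217 FPM against 192 in thyAD I and 125 in Immune nuclei. Ppard, at 146, 118 and 134 FPM, and Esrra, at 124, 105 and 135, had intervals that overlapped between the labels. The barcodes without a label, 417201 of them, gave 40.7 FPM over Ppara, 71.3 over Esrrg, 110 over Ppargc1b, 92.5 over Ppargc1a and 78.8 over Rxra, below all 3 labels. They gave 153 over Ppard and 129 over Esrra. Over Pank1 they gave 48.8 FPM, above the 46.3 of Immune nuclei and within the thyAD II interval (44.6 to 64.5).

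**Figure D4:**
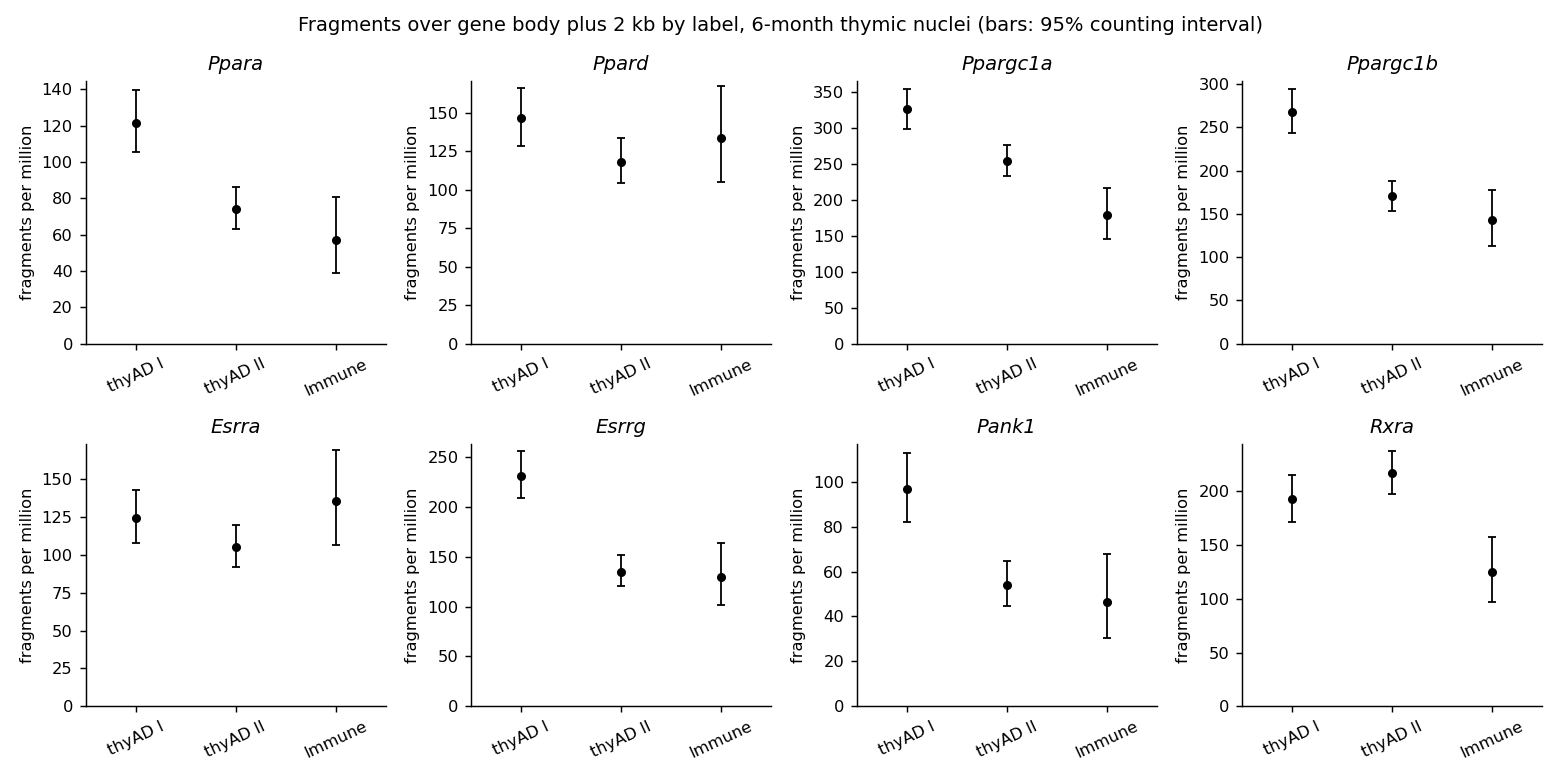
Fragments over each gene plus 2 kb, per 1000000 fragments of the label (vertical axis, from 0), in 146 thyAD I, 140 thyAD II and 31 Immune nuclei (horizontal axis); bars are 95% Poisson intervals. Ppara, Ppargc1a, Ppargc1b, Esrrg and Pank1 are highest in thyAD I, where Ppara has 121 FPM, and their bars there do not overlap those of thyAD II. Rxra is highest in thyAD II, and the Ppard and Esrra bars overlap.

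As log2 ratios of thyAD II over thyAD I, Pank1 was at -0.84 (-1.20 to -0.49), Esrrg at -0.77 (-0.999 to -0.55), Ppara at -0.71 (-1.02 to -0.41), Ppargc1b at -0.66 (-0.86 to -0.45), Ppargc1a at -0.36 (-0.53 to -0.19) and Ppard at -0.31 (-0.57 to -0.05). Those 6 of 8 intervals lay below 0, as did those of 5.54% of 27863 genes, and none lay above 0, against 5.6%. The windows of long genes hold more fragments and give narrower intervals, and the 8 genes span 11.1 to 662 kb. Counted only within 1 kb of its starts, the Pank1 ratio fell outside its interval. So did that of Ppargc1b when counted within 1 kb of both gene ends. Both values are given in the last section. Esrra at -0.25 (-0.52 to 0.03) and Rxra at 0.17 (-0.04 to 0.38) included 0. The labels may have been drawn from the same fragments, so this describes the annotation. Within thyAD I, cluster 3 was lower than cluster 1 for Pank1 at -0.87 (-1.49 to -0.31), Esrrg at -0.60 (-0.97 to -0.26), Ppargc1b at -0.54 (-0.87 to -0.22) and Ppargc1a at -0.31 (-0.60 to -0.03), and higher for Rxra at 0.49 (0.15 to 0.82). Intervals below 0 were found for 4% of 22472 genes and above 0 for 4.98%. The 2 clusters of thyAD II, numbered 0 and 4, had intervals that include 0 for all 8, with 2.82% of genes above 0 and 4.02% below. Other annotated genes lie inside some windows: 4 touch the Esrra window, 4 that of Ppargc1b and 3 that of Esrrg, while the Rxra and Ppargc1a windows hold none.

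Fragments at the annotated starts were few in number, with a median of 1 over 32619 starts in thyAD I and in thyAD II. They are given for the 300-base windows. At the Ppara start there were 36 fragments in thyAD I and 30 in thyAD II, a log2 ratio of -0.67 (-1.42 to 0.07). These counts were higher than at 89.3% of starts in thyAD I and 80.6% in thyAD II, and Immune nuclei had 7 fragments there (79.1%). Cut sites near Ppara were most frequent in the 100-base bins that begin at -500 to -200 from this start, partly outside the window shown above. The Pank1 starts were unlike each other. The downstream start, the one without a TATA motif, was the open one, with 36 fragments in thyAD I and 53 in thyAD II. The upstream start with its TATA motif had 5 and 1; the 500-base interval just downstream of it had 16 and 6. At the Esrrg upstream start thyAD I had 7 fragments and thyAD II 1, and the most downstream start of this gene had 6 and 1. The log2 ratios at these 3 starts rest on 1 fragment in thyAD II, and their intervals are wide (-8.71 to -0.26 for the Esrrg upstream start, -8.52 to 0.05 for the downstream one and -8.30 to 0.43 for the Pank1 upstream start). Over the 1 kb on either side, the counts were 16 and 8 at that Esrrg start and 27 and 20 at the upstream Pank1 start.

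Starts of the broadly detected genes were open in both labels: Ppard had 65 fragments in thyAD I and 70 in thyAD II, and Esrra 67 and 86. The upstream Rxra start had 29 and 53, and its downstream start 1 and 0. The single Ppargc1a start in the table, which lies inside the annotated gene, had 1 and 2 fragments. The most open 500-base intervals of Ppargc1a were instead 28.3 kb and 301 kb from that start, with 45 and 48 fragments in the first and 45 and 45 in the second. Immune nuclei had 9 fragments at the first and 1 at the second, or 16.0 and 1.78 FPM.

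**Figure D5:**
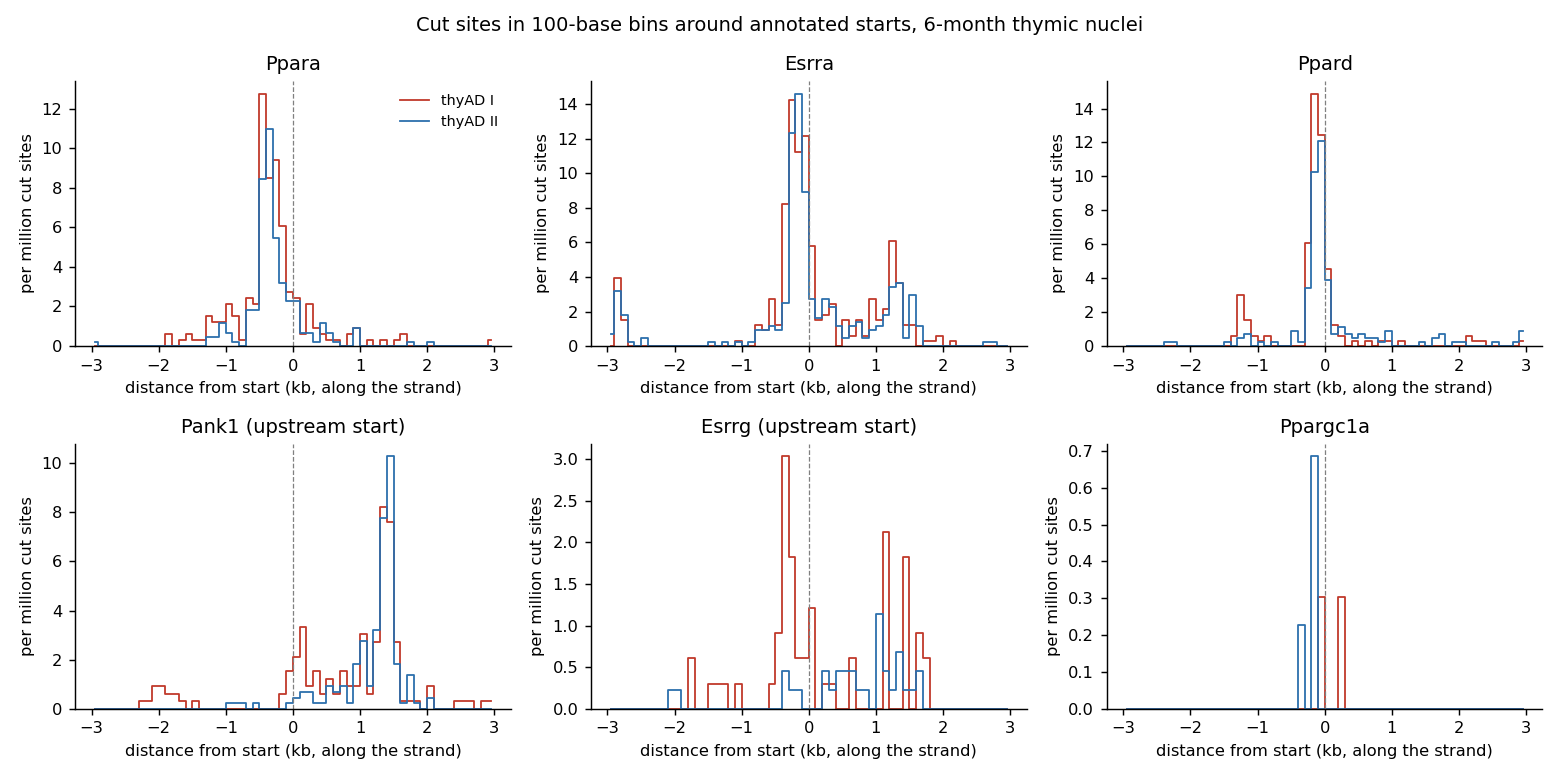
Cut sites (fragment ends) in 100-base bins, per 1000000 cut sites of the label (vertical axis, from 0, scaled per gene), against distance from an annotated start along the strand (horizontal axis, kb), in thyAD I (red) and thyAD II (blue). Ppara, Esrra and Ppard have one main peak just upstream of the start, Pank1 has its main peak at the downstream start, 1.54 kb from the upstream one, and Ppargc1a has 1 and 2 fragments at this start.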

How the data were processed

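The files are the authors' deposited matrices of UMI counts per gene and barcode for the 4-month thymic and epigonadal libraries, raw and not normalized, a deposited list of chromatin fragments for the 6-month library, and tables of labels per nucleus with the authors' percent of mitochondrial counts. Per the file headers, the matrices came from Cell Ranger 7.2.0; per the submitters' processing notes, Cell Ranger ARC 2.0.2 and Seurat 5.1.0 were used with the mm10 build. Whether intronic reads were counted is not stated. Every labelled nucleus of the 4-month table carries the authors' scDblFinder class singlet, and no doublet caller was run on the unlabelled barcodes. Nuclei of a label were summed and levels given as CPM of nuclear-encoded UMIs, with exact Poisson intervals, Clopper-Pearson intervals for shares and binomial intervals for ratios (95%); a count of 0 was given a limit of 3 counts. With 1 library per group no test was run. The thymic matrix held 10054839 UMIs and the epigonadal one 6504841, and the chromatin list 101060606 fragments; a sum as small as thymic Ad I resolves levels down to 57.4 CPM. The ratio code was tested on simulated data. Scaling alternatives used edgeR 4.0.16.

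The genes and the 6 gene lists were chosen with earlier results of these data known, so they are no independent support. Named genes are all 8 regulators, the 2 highest and 2 lowest of each list in Ad I with at least 10 UMIs (all such genes for the receptor relatives), and the 3 genes most like each regulator with 50 UMIs by Pearson correlation of log2(CPM + 10). Acadm, Acadl, Hadha and Hadhb were named outside this rule, after their values were seen. Esrrg and Ppargc1a were below 50 UMIs. A gene that this rule names is not reported here. Barcodes without a label served as background. No column of per-sample values was left unused.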

Additional observations from a re-analysis of the deposited data

Results flagged for a closer look

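Over all nuclei, Ppara differed between Ad Ib and Ad Ia in opposite directions in the 2 depots. The log2 ratio of Ad Ib over Ad Ia was 0.92 (0.29 to 1.60) in the thymic library, on 56 and 33 UMIs, and -0.97 (-1.78 to -0.24) in the epigonadal library, on 22 and 52 UMIs. Among thymic nuclei of like depth the direction varied: Ad Ia and Ad Ib had 4383 and 3519 CPM under 500 UMIs, 1466 and 1995 CPM from 500 to under 1000, both with overlapping intervals, and 214 and 183 CPM on 3 UMIs and 1 above that. In the epigonadal library Ad Ia was higher in both strata, at 420 and 238 CPM and at 345 and 74.0 CPM. The difference between the depots was not tested, since each is 1 library.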

How the results depend on the processing

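The thymic excess of Ppara depended on which nuclei were used. With only nuclei of 1000 UMIs or more, its log2 ratio turned to -0.25 in Ad I (4 and 41 UMIs), -0.48 in Ad Ia (3 and 38 UMIs) and -0.089 over all labels (12 and 45 UMIs), and Ppargc1b and Esrrg in Ad I dropped to 1.04 and 1.60. With nuclei under 1000 UMIs, a choice made after seeing the data, Ppara was 3.14, Ppargc1b 3.56 and Esrrg 4.65 in Ad I. Ppara was 3.12 with equal weight per nucleus and 3.09 with nuclei thinned to 300 UMIs, and Pank1 was 6.49 with the profile of unlabelled barcodes subtracted. That subtraction did not rescale the totals and left epigonadal Pank1 under the limit of 3 UMIs, so the 6.49 depends on the 0.5 UMI added to each sum and is no measured size. TMM scaling shifted all Ad I ratios by -0.34, leaving Ppara at 2.26, Ppargc1b at 2.53, Esrrg at 3.02 and Pank1 at 4.27. The counts of Ad I intervals above or below 0 are given without this shift. The lower limits of Pparg, Prkacb and Hadhb were smaller than the shift. Of 287 alternative values for RNA ratios, 266 lay within the interval of the main value and 18 outside it. The other 3 had the opposite sign to a main value whose interval excludes 0. A change of sign within an interval that includes 0 was counted among the 266. For chromatin 112 of 117 stayed and 5 moved, all 5 with fragments counted only within 1 kb of the starts. In that setting Ppargc1b was at -0.02 and Pank1 at -0.22 for thyAD II over thyAD I. Ppargc1b had no annotated start, so its value covers 1 kb around both ends of the gene. The windows of the Pank1 starts overlap, so fragments in both were counted more than once. Counts over the gene lists and shares of nuclei were less stable: 31 of 56 list counts and 27 of 96 shares moved. TMM scaling also moved the list counts in Ad I: 2 rather than 7 of the 17 genes upstream of PGC-1 were 2-fold or more higher, and 5 rather than 3 of the 18 PPAR alpha targets were lower, beside a move from 15.2% to 7.43% higher and from 17% to 24.4% lower over all genes. With at least 50 UMIs, 2 of 5 PPAR alpha targets and 1 of 4 estrogen-related receptor targets were 2-fold or more higher, rather than 8 of 18 and 6 of 21, so fewer genes were tested. Alternatives that left 0 UMIs on 1 side, or 3 or fewer on both, gave no ratio. No paired analysis was possible because each group is 1 library. Levels below 57.4 CPM in thymic Ad I are below what 3 UMIs allow.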
